A study of Mus musculus with 20 samples.

Results

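The last interval of a reprogramming course, from day 5 to day 7, was examined within the arm that received an shRNA against Ddx10. Its 4 libraries, 2 of each day, were chosen by their labels out of the 20 libraries of the series, and all 15757 genes of the table were tested. The cells were embryonic fibroblasts of OG2 mice at passage 2, infected with retroviruses made in Plat-E cells and grown in iCD1 medium renewed each day. All groups, the controls included, received the reprogramming factors Oct4 (Pou5f1), Sox2, Klf4 and Myc. The libraries of days 5 and 7 of the control arm, 2 of each day, whose shRNA is labelled shLuci, serve as the reference for the same interval. All 20 libraries entered the main fit, and earlier days are given for some genes. No label gives another Ddx10 shRNA or a rescue, so the loss of Ddx10 and other effects of the shRNA cannot be told apart.

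In such cultures fibroblasts first lose mesenchymal and gain epithelial transcripts, and a minority of the cells later switches on the network of pluripotency genes that sustains embryonic stem cells. Early response genes, among them Egr1 and Dusp1, are transcribed within minutes of growth factor, stress or matrix signals. Ddx10 is a DEAD-box RNA helicase of the nucleolus that works in small ribosomal subunit assembly. Each library is RNA of a whole culture, so fewer cells of a type and less RNA per cell cannot be told apart.

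The 4 libraries summed to 15.7 to 15.8 M normalized read counts, and the spacing of their low values put their depth at about 13.9 to 23.6 M reads. Day 5 replicate 2 was the deepest and had the fewest genes at 0, with 75 against 102 to 140 in the other libraries. Replicates correlated at r = 0.987 on day 5 and 0.988 on day 7 across genes, which are not independent of each other. Ddx10 (ENSMUSG00000053289, mm10 chromosome 9, 53098635 to 53248053, minus strand) had 426 and 455 normalized read counts on day 5 and 530 and 529 on day 7. Its log2 change of 0.27 (SE 0.116) did not pass the test (limma adjusted p = 0.377), and all 4 values lay below the 4 control values of these days, 728.7 to 867. None of the 4 reprogramming factors was called, with the largest change at Myc, from 746 and 891 to 719 and 670 (log2 -0.23, limma adjusted p = 0.336). Pou5f1 stood at 14150 and 13580 on day 5 and at 13730 and 13800 on day 7.

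Between the 2 days in the Ddx10 shRNA arm, limma called 36 of 15757 genes at an adjusted p under 0.05, or 0.228%, of which 19 rose (0.121%) and 17 fell (0.108%). The count was 16 and 101 with pseudocounts of 0.1 and 5, 14 with a replicate block, 131 after quantile scaling, 181 on the 4 libraries alone and 388 with library weights. At an unadjusted p under 0.05 there were 936 higher (5.94%) and 943 lower genes (5.98%). The median absolute log2 change over all genes was 0.147, and 543 genes moved by more than 1 on that scale. In the preceding interval, from day 3 to day 5, the same arm had 2351 called genes and a median absolute change of 0.217; both intervals use the day 5 libraries. Day 5 and day 7 replicates were fully separate in all 36 called genes, and in 49.9% of all genes.

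Most of these calls sat close to the threshold and rested on all 4 libraries together. Of the 36, 20 had an adjusted p above 0.04. Without day 5 replicate 1, limma called 5 genes, and 4 of the 36 stayed called (Cyr61, Egr1, Mogat2 and Ooep). Without day 5 replicate 2 it called 16 (7 of the 36), without day 7 replicate 1 it called 5 (3 of the 36) and without day 7 replicate 2 it called 18 (9 of the 36). Cyr61, Egr1 and Mogat2 passed in all of these fits, and 23 of the 36 passed in none of them. The direction of all 36 was the same in every alternative in which they were tested, which was 13 for the rows Sgsm3 and PCDHA9 and 14 for the others. Of the 36, 2 (Mogat2 and Cyr61) were called in all 14.

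**Figure D1:**
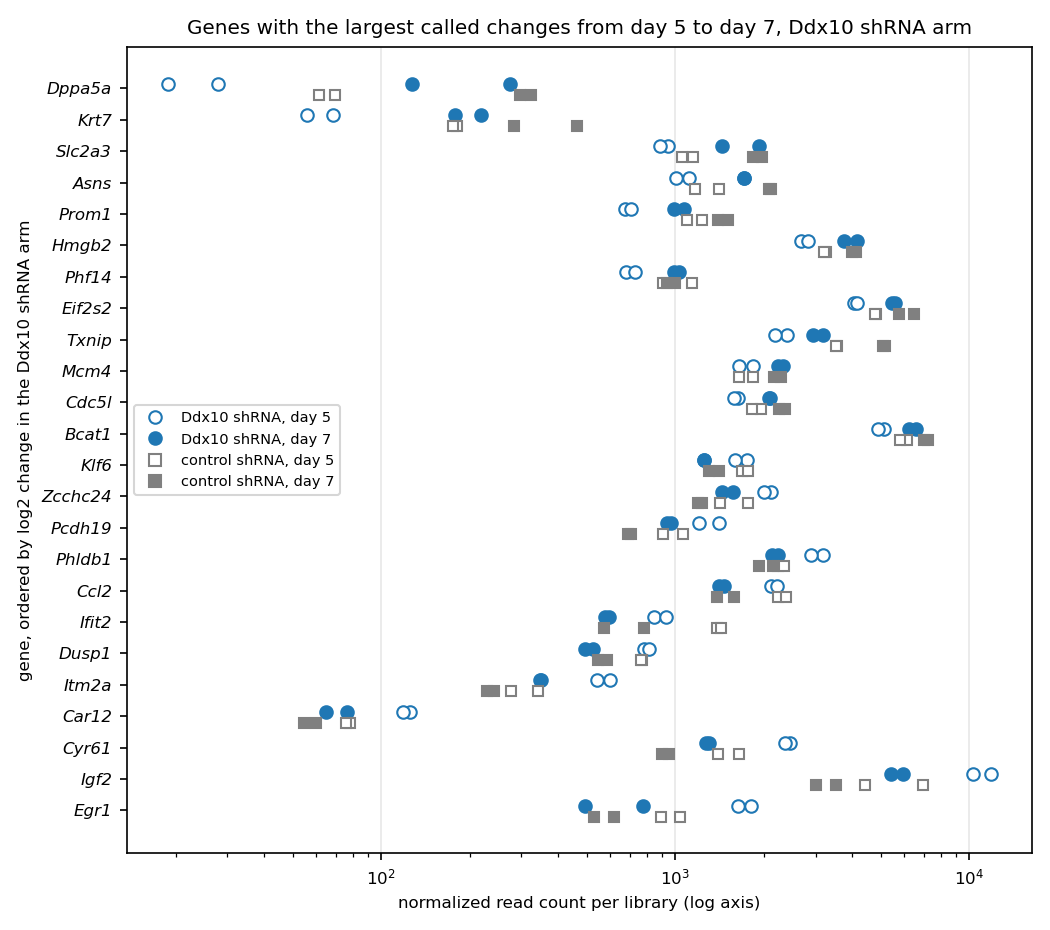
Normalized read counts (log axis) of 24 called genes whose mean reaches 50, the 12 that rose and the 12 that fell most, ordered by log2 change; circles are the libraries of the Ddx10 shRNA arm and squares those of the control shRNA arm, open for day 5 and filled for day 7. Separate day 5 and day 7 replicates in the Ddx10 shRNA arm were a condition of choice, so filled and open circles do not overlap by rule. Egr1 fell from 1810 and 1633 to 779 and 493.

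Among the 17 falls were 2 of the 20 measured early response genes, Egr1 and Dusp1. Egr1 (ENSMUSG00000038418), a zinc finger transcription factor of the early response, had 1810 and 1633 normalized read counts on day 5 and 779 and 493 on day 7. Both day 7 libraries lay far below both day 5 libraries, though they differed from each other more than the day 5 pair did. The log2 change was -1.47 (SE 0.152, limma adjusted p = 0.00045), whereas from day 3 to day 5 the change of Egr1 was -0.01. Dusp1 (ENSMUSG00000024190), a phosphatase that switches off MAP kinases, went from 780 and 813 to 491 and 526 (-0.65, SE 0.0891, limma adjusted p = 0.00914). Klf6, a zinc finger factor also known as an early response gene but outside the list used here, went from 1752 and 1596 to 1250 and 1249 (-0.42, limma adjusted p = 0.0355). Without 1 library the limma adjusted p was at most 0.0125 for Egr1, though it was 0.0981 in a fit on the 4 compared libraries alone. It was 0.025 to 0.144 without 1 library for Dusp1 and 0.0541 to 0.291 for Klf6.

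All 20 measured early response genes had a negative log2 change, with a median of -0.29 against 0.00258 over all genes, and 2 of them (Egr1 and Dusp1) were called. At an unadjusted p under 0.05, 8 of 20 (40.0%) were lower and 0 higher, against 5.98% lower and 5.94% higher over all genes. Among these 8, Fos, a subunit of the AP-1 factor, went from 457 and 422 to 389 and 255 (log2 -0.48, limma adjusted p = 0.245), and the nuclear receptor gene Nr4a1 from 1059 and 985 to 780 and 818 (-0.35, limma adjusted p = 0.0896). In that fit on 4 libraries 1 member of the list was called. The least moved was Ier2, at 812 and 840 on day 5 and 844 and 780 on day 7. In the control arm 16 of the 20 were negative, with a median of -0.22. There 2 were called lower, and 9 were lower at an unadjusted p under 0.05.

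Cyr61 (named Ccn1 in RefSeq; ENSMUSG00000028195, mm10 chromosome 3, 145646976 to 145649981, minus strand), a secreted matrix protein that is a textbook target of YAP and TEAD factors, tied with Egr1 and Mogat2 for the smallest limma adjusted p of all genes in this interval. It stood at 2462 and 2361 on day 5 and at 1304 and 1270 on day 7. The pairs were tight and well apart, and the log2 change was -0.91 (SE 0.0941, limma adjusted p = 0.00045), with adjusted values of 0.00514 to 0.0125 without 1 library. The related gene Ctgf, also a YAP target, went from 1502 and 1508 to 1343 and 1231 (-0.23, limma adjusted p = 0.348).

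Promoter stretches are shown for 3 called genes that stand for the signals their products are best known for: matrix and YAP signalling (Cyr61), kinase signalling (Dusp1) and amino acid supply (Asns, described further on). They were read from RefSeq's promoter table for GRCm38.p6, 5′ to 3′ along the gene's minus strand, and leave out GENCODE exons except in Asns, for which 30 bases around the match are shown. Capitals mark the match to 1 motif per gene: GGAATG, the TEAD element, in Cyr61 (chr3:145649986-145650165, seen here as its reverse complement, beginning 103 bases before the RefSeq start); TGACGTCA, the cAMP response element, in Dusp1 (chr17:26508520-26508652, 143 bases before); and TGATGNAA, the amino acid response element, in Asns (chr6:7693214-7693243, 23 bases before).
Cyr61: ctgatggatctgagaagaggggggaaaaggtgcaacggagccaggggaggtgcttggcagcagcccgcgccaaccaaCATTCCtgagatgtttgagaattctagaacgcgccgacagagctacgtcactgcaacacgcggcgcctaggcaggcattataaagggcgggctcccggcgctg
Dusp1: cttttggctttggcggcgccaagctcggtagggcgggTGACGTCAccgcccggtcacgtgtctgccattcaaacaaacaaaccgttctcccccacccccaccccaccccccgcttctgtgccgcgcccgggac
Asns: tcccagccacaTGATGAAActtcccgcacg
On either strand of the 250 bases before the start, GGAATG was found in 12.6% of 32851 RefSeq promoters, TGACGTCA in 1.55% and TGATGNAA in 3.45%. A match describes the letters in the window only; binding was not measured.

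Fibroblast and matrix genes were lower on day 7 nearly throughout. Of 44 measured, 43 had a negative log2 change with a median of -0.25. Cyr61 was the 1 called, and 25 (56.8%) were lower at an unadjusted p under 0.05 with 0 higher. The collagen gene Col1a2 went from 43630 and 44360 to 31750 and 36850 (log2 -0.36, limma adjusted p = 0.0716), the collagen cross-linking enzyme gene Loxl1 from 660 and 695 to 403 and 468 (-0.64, limma adjusted p = 0.0629) and the mesenchymal transcription factor gene Prrx1 from 4320 and 3970 to 2822 and 2969 (-0.52, limma adjusted p = 0.0627). Col6a3, a collagen VI chain gene, went from 8675 and 9769 to 6753 and 6527 (-0.47, limma adjusted p = 0.0597). Fn1, the fibronectin gene, stood at 59200 and 55680 and then 57600 and 57120. Day 7 replicate 2 kept more of these transcripts than replicate 1, with a summed level of 358100 against 327700, below 397200 and 398000 on day 5. The list median was accordingly -0.18 without day 7 replicate 1 and -0.32 without replicate 2. In the control arm the median was -0.20, with 5 members called lower.

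Igf2 (ENSMUSG00000048583, mm10 chromosome 7, 142650766 to 142666816, minus strand), an imprinted fetal growth factor gene, had 11830 and 10300 normalized read counts on day 5 and 5413 and 5968 on day 7. Both day 7 values lay far below both of day 5, with a log2 change of -0.96 (SE 0.176, limma adjusted p = 0.0488, and 0.104 to 0.374 without 1 library). Its imprinted neighbour H19, a long noncoding RNA gene (142575529 to 142578143, same strand), went from 13600 and 12450 to 7734 and 7497 (-0.77, limma adjusted p = 0.0914). Igf2r, which encodes the receptor that clears this growth factor, stood at 16160 in each library of day 5 and at 13480 and 13950 on day 7 (-0.24, limma adjusted p = 0.283). Of the 18 imprinted genes measured, these 3 included, 9 were positive and 9 negative, with a median of 0.04.

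Mogat2 (ENSMUSG00000052396, mm10 chromosome 7, 99219084 to 99238619, minus strand), an acyltransferase gene of triglyceride synthesis, had 37.0 and 27.8 normalized read counts on day 5 and 3.25 and 4.37 on day 7. The ratio of means was 0.118 and the log2 change -2.79 (SE 0.288, limma adjusted p = 0.00045), with adjusted values of 0.00162 to 0.0125 without 1 library. From day 3 to day 5 the gene had risen by 1.24 (limma adjusted p = 0.00863), so its course had a brief peak on day 5, far under the 176 and 201 of day 0. The control arm also peaked on day 5, at 26.5 and 32.3 on day 5 and 5.32 and 6.66 on day 7. Mogat2 was named after its values were seen, since its mean lies under 50.

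The remaining falls were in genes of separate functions. Itm2a, a membrane protein gene, went from 600 and 542 to 347 and 349 (log2 -0.71, limma adjusted p = 0.00914), and Ccl2, a monocyte-attracting chemokine gene, from 2113 and 2220 to 1409 and 1469 (-0.59, limma adjusted p = 0.0102). Car12, a carbonic anhydrase gene, went from 126 and 119 to 76.3 and 65.0 (-0.79, limma adjusted p = 0.0488). Phlda3, a p53 target that restrains Akt, went from 2813 and 2875 to 2006 and 2284 (-0.41, limma adjusted p = 0.0488). The protocadherin gene Pcdh19 (-0.46), Phldb1 (-0.47) and Zcchc24 (-0.45) also fell, each at a limma adjusted p of 0.0488, as did the mast cell and basophil protease gene Mcpt8, from 65.4 and 54.9 to 21.2 and 27.0 (-1.29, limma adjusted p = 0.0361) and the transcript 4932441J04Rik (-1.50, limma adjusted p = 0.0488), both named after their values were seen. Each of these lost its call without some single library. Without day 5 replicate 1 the limma adjusted p was 0.151 for Itm2a and 0.308 for Car12. Without day 7 replicate 1 it was 0.162 for Ccl2, 0.323 for Mcpt8, 0.418 for Phlda3, 0.369 for Pcdh19 and for 4932441J04Rik, 0.403 for Phldb1 and 0.417 for Zcchc24.

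Interferon-stimulated genes, which had been higher on day 5 than on day 3 in this arm (list median 0.40), stood lower on day 7. Of 41 measured, 38 were negative with a median of -0.22, 1 was called and 10 (24.4%) were lower at an unadjusted p under 0.05. The called gene, Ifit2, which encodes an antiviral RNA-binding protein, went from 846 and 930 to 595 and 575 (log2 -0.60, limma adjusted p = 0.0488, and 0.162 to 0.287 without 1 library). Its relative Ifit3 went from 1530 and 1893 to 1034 and 932 (-0.79, limma adjusted p = 0.0781). The sensor gene Ddx58 moved little, with 5835 and 5485 and then 5670 and 5574. Antigen presentation genes were negative in 11 of 12, with a median of -0.29 and 0 called; the immunoproteasome gene Psmb10 went from 684 and 768 to 432 and 452 (-0.71, limma adjusted p = 0.0558). In the control arm the interferon median was -0.36, with 3 members called lower.

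Secreted inflammatory and senescence-associated genes were also mostly lower, 21 of 24 with a median of -0.35, and Ccl2 was the 1 called. The collagenase gene Mmp13 went from 160 and 152 to 63.9 and 83.6 (log2 -1.09, limma adjusted p = 0.197), while Igfbp2, a growth factor carrier, went the other way from 295 and 313 to 489 and 438 (0.60, limma adjusted p = 0.127). Of 30 cell cycle inhibitor and p53 target genes, 24 were negative with a median of -0.11 and Phlda3 was called. Cdkn1a, the p21 inhibitor of cyclin-dependent kinases, had 16690 and 15800 normalized read counts on day 5 and 12860 and 13810 on day 7 (-0.28, limma adjusted p = 0.0575). Genes of TGF-beta and BMP signalling had 18 of 25 negative, a median of -0.16 and 0 called.

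Of the 19 genes that rose, 3 were members of the pluripotency lists (Dppa5a, Utf1 and Lin28a), each with a log2 change above 2.5. Dppa5a (ENSMUSG00000060461, mm10 chromosome 9, 78367052 to 78368177, minus strand), an RNA-binding protein gene of naive stem cells, had 28.0 and 18.8 normalized read counts on day 5 and 274 and 127 on day 7. The day 7 libraries lay far apart from each other, yet both were well above day 5 (ratio of means 8.58, log2 2.97, SE 0.554, limma adjusted p = 0.0488). Utf1, a chromatin-associated factor, went from 5.73 and 3.33 to 41.6 and 29.2 (2.73, SE 0.531, limma adjusted p = 0.0488), and Lin28a, which blocks maturation of let-7 miRNAs, from 1.53 and 2.28 to 30.9 and 16.2 (3.02, SE 0.518, limma adjusted p = 0.0355). At day 5 these 3 were still near the bottom of the range, so the log2 changes depend on the added 1. Utf1 and Lin28a then lay under 7.606, a level that every gene of the table reached in its highest library. These 2 may be in the table through their day 7 values. The limma adjusted p without 1 library was 0.0639 to 0.418 for Dppa5a, 0.115 to 0.418 for Utf1 and 0.0573 to 0.363 for Lin28a.

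Ooep, an oocyte-expressed gene that neighbours Dppa5a (mm10 chromosome 9, 78376109 to 78378725, same strand), went from 5.66 and 0 to 31.0 and 41.2 (limma adjusted p = 0.0457, and 0.00863 to 0.238 without 1 library). With 1 day 5 library at 0 its size is poorly set: the fitted log2 change of 3.83 ran from 2.46 (without day 5 replicate 2) to 5.56 (pseudocount of 0.1). It was named after its values were seen, as was the X-linked AU015836, which went from 6.43 and 9.78 to 35.6 and 35.1 (2.02, limma adjusted p = 0.0488, and 0.113 to 0.374 without 1 library).

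The wider pluripotency lists leaned the same way. Of 19 naive pluripotency genes 18 were positive with a median of 0.75, 1 was called and 11 (57.9%) were higher at an unadjusted p under 0.05. Of 21 general pluripotency genes 18 were positive with a median of 0.62, 2 were called and 12 (57.1%) were higher at that level. Nanog, a homeobox gene of the core network, had 48.5 and 41.5 normalized read counts on day 5 and 226 and 151 on day 7 (2.02, limma adjusted p = 0.183), and the nuclear receptor gene Esrrb 45.3 and 33.8 and then 283 and 186 (2.52, limma adjusted p = 0.122). Neither gene's pairs overlapped, but neither passed. Nearer the threshold were Mybl2, a transcription factor gene of dividing and stem cells, from 871 and 843 to 1196 and 1122 (0.44, limma adjusted p = 0.0529), and the germ cell and naive state gene Dppa3, from 1.07 and 2.41 to 21.15 and 15.8 (2.86, limma adjusted p = 0.0597). Tdgf1, a co-receptor for Nodal, went from 5.67 and 6.03 to 58.1 and 45.6 (2.94, limma adjusted p = 0.0558). Other members had no such change: Lefty1 stood at 65.5 and 79.0 and then 79.7 and 61.8, and Foxd3 at 10.2 and 6.04 and then 5.81 and 4.34. Dppa3 and Tdgf1 lay under 7.606 on day 5, a level that every gene of the table reached in its highest library. Such members may be in the table through their day 7 values, which favours positive counts in these lists. In a fit on the 4 compared libraries alone, 6 naive and 8 general members were called, and with a pseudocount of 0.1 none was. Primed pluripotency genes, which mark the later epiblast, had a median of 0.10 over 8 measured and 0 called.

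**Figure D2:**
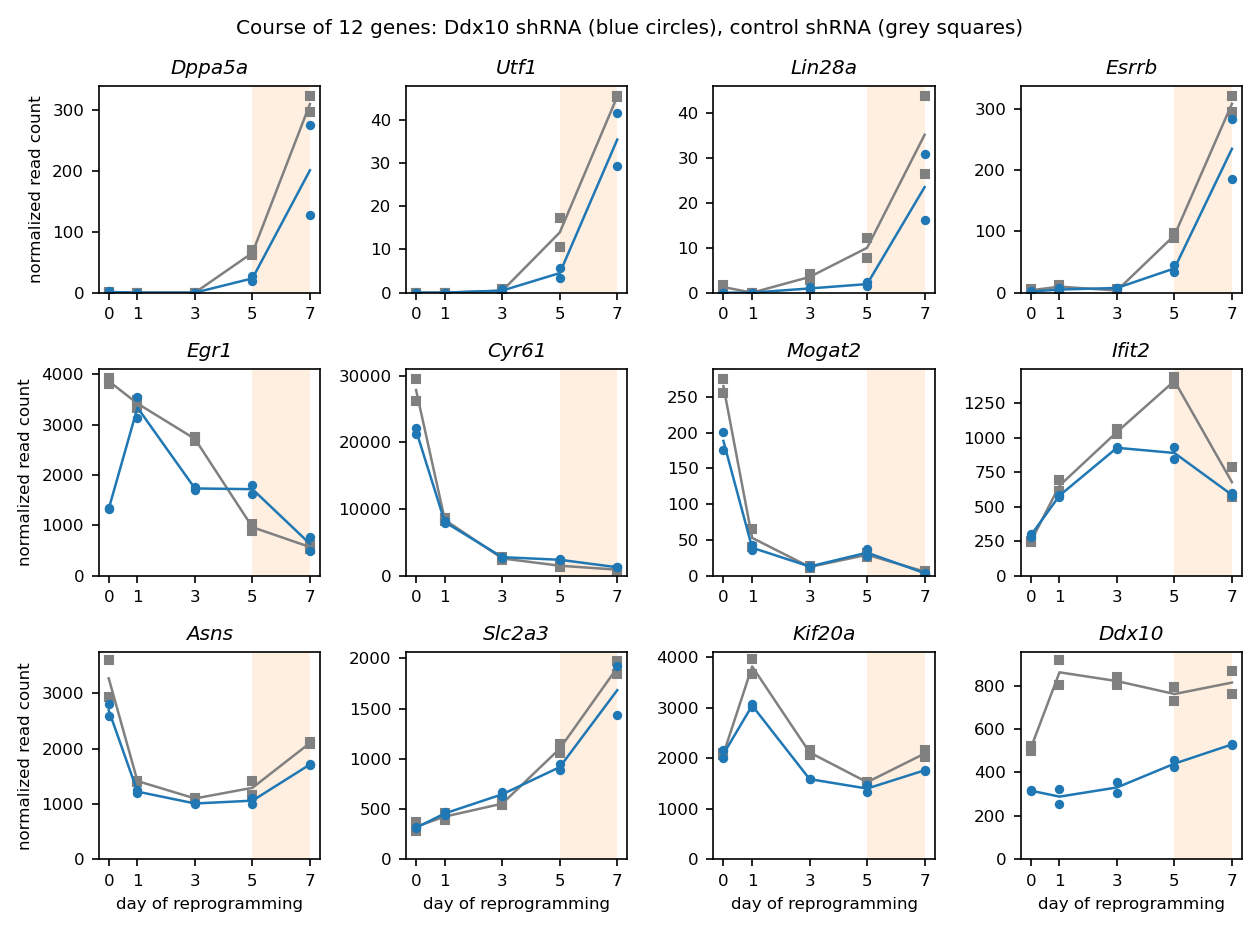
Normalized read counts of 12 genes over days 0, 1, 3, 5 and 7; points are single libraries and lines join group means, blue for the Ddx10 shRNA arm and grey for the control shRNA arm, with the interval from day 5 to day 7 shaded. In the shaded interval Dppa5a, Utf1, Lin28a and Esrrb climb in both arms, Egr1 drops from a day 5 level that is higher in the Ddx10 shRNA arm, and Mogat2 falls from a small day 5 peak.

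Epithelial genes continued upward. Of 33 measured, 32 had a positive log2 change with a median of 0.43, against a median of 1.40 in the interval from day 3 to day 5, which shares the day 5 libraries. From day 5 to day 7 the control arm had a median of 0.485, with 9 members higher at an unadjusted p under 0.05. In the Ddx10 shRNA arm Krt7 was the 1 member called and 16 (48.5%) were higher at that level. Krt7 (ENSMUSG00000023039), a keratin gene of simple epithelia, went from 68.6 and 56.0 to 178 and 218 (1.65, SE 0.312, limma adjusted p = 0.0488, and 0.169 to 0.238 without 1 library). Krt8, another keratin gene of simple epithelia, went from 1266 and 1341 to 2168 and 1974 (0.67, limma adjusted p = 0.0558), and the adhesion gene Epcam from 1640 and 1634 to 2975 and 2807 (0.82, limma adjusted p = 0.413). Jup, a gene of desmosomes and adherens junctions, had 5548 and 5448 and then 5469 and 5623. Prom1, a gene of membrane protrusions outside the list, rose from 675 and 706 to 1073 and 990 (0.58, limma adjusted p = 0.0488, and 0.104 to 0.417 without 1 library).

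Of the 19 rises, 5 were in genes known for roles in metabolism or translation, a grouping made after the calls were seen. Asns (ENSMUSG00000029752), asparagine synthetase and a target of the amino acid response, whose promoter match is printed above, went from 1003 and 1110 to 1711 and 1714 (log2 0.70, SE 0.0983, limma adjusted p = 0.00914). Slc2a3, a high-affinity glucose transporter gene, went from 945 and 889 to 1928 and 1439 (0.86, SE 0.139, limma adjusted p = 0.0252). Bcat1, a branched-chain amino acid transaminase gene, rose by 0.35 and the initiation factor gene Eif2s2 by 0.43 (limma adjusted p = 0.0488 and 0.0355). Txnip, an inhibitor of thioredoxin and glucose uptake, went from 2391 and 2180 to 3179 and 2934 (0.42, limma adjusted p = 0.0488). Without 1 library the limma adjusted p was 0.0267 to 0.151 for Asns, 0.00832 to 0.277 for Slc2a3, 0.0985 to 0.417 for Bcat1, 0.113 to 0.218 for Eif2s2 and 0.0817 to 0.417 for Txnip.

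The lists around these genes had small medians. Of 34 stress response genes, Asns was the 1 called and the median was 0.01, with Ddit3, the CHOP factor of that response, at 346 and 318 and then 268 and 273 (log2 -0.29, limma adjusted p = 0.323). Glycolysis genes had a median of 0.09 with Slc2a3 called, and 18 of 23 were positive. At an unadjusted p under 0.05, 4 (17.4%) were higher and 0 lower, against 5.94% and 5.98% of all genes. The lactate exporter gene Slc16a3 went from 24.96 and 21.4 to 65.1 and 74.6 (1.55, limma adjusted p = 0.0859). Oxidative phosphorylation genes had a median of -0.08 and cholesterol synthesis genes 0.04, with 0 called in either.

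Mcm4 was the 1 gene called among 44 of S phase, and 0 of 44 were called for G2 and M phase. Mcm4, a subunit of the replicative helicase, went from 1647 and 1833 to 2236 and 2323 (log2 0.39, SE 0.0757, limma adjusted p = 0.0488), and, outside these lists, the chromatin protein gene Hmgb2, high in dividing cells, from 2673 and 2835 to 4151 and 3751 (0.52, SE 0.0762, limma adjusted p = 0.0102). The splicing and mitosis gene Cdc5l rose by 0.38 (limma adjusted p = 0.027), and the chromatin reader gene Phf14 from 681 and 732 to 989 and 1032 (0.52, limma adjusted p = 0.0488). Without 1 library the limma adjusted p was 0.0847 to 0.344 for Mcm4, 0.0199 to 0.181 for Hmgb2, 0.0985 to 0.209 for Cdc5l and 0.113 to 0.313 for Phf14.

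Of 44 S phase genes 41 were positive with a median of 0.21, and 21 (47.7%) were higher at an unadjusted p under 0.05. Of 44 G2 and M phase genes 41 were positive with a median of 0.28, and 28 (63.6%) were higher at that level. Both medians had been negative from day 3 to day 5, at -0.12 and -0.17, with the day 5 libraries shared. The mitotic kinesin gene Kif20a went from 1330 and 1466 to 1749 and 1772 (log2 0.33, limma adjusted p = 0.0558). The cytokinesis motor gene Kif23 went from 701 and 635 to 888 and 903 (0.42, limma adjusted p = 0.0575), the cyclin F gene Ccnf from 740 and 803 to 999.9 and 1041 (0.40, limma adjusted p = 0.0595) and the cyclin gene Ccnb1 from 1592 and 1690 to 2200 and 2209 (0.43, limma adjusted p = 0.115). Cenpf and Cenpe, large kinetochore proteins, moved most, Cenpf from 771 and 472 to 1910 and 1659 (1.56, limma adjusted p = 0.166), and in both genes day 5 replicate 2 lay well below replicate 1. Ribosome biogenesis factors, the group of Ddx10, had 62 of 78 positive, a median of 0.12 and 0 called, with 16 (20.5%) higher at an unadjusted p under 0.05. The nucleolar gene Ncl went from 12400 and 13470 to 16080 and 15720 (0.30, limma adjusted p = 0.0781). That median was 0.08 without day 5 replicate 1 and 0.14 without replicate 2, and it was 0.03 in the control arm. The S phase median in the control arm was 0.28, with 1 called and 25 of 44 higher at an unadjusted p under 0.05. For G2 and M phase it was 0.25 there, with 6 called and 25 of 44 higher at that level.

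**Figure D3:**
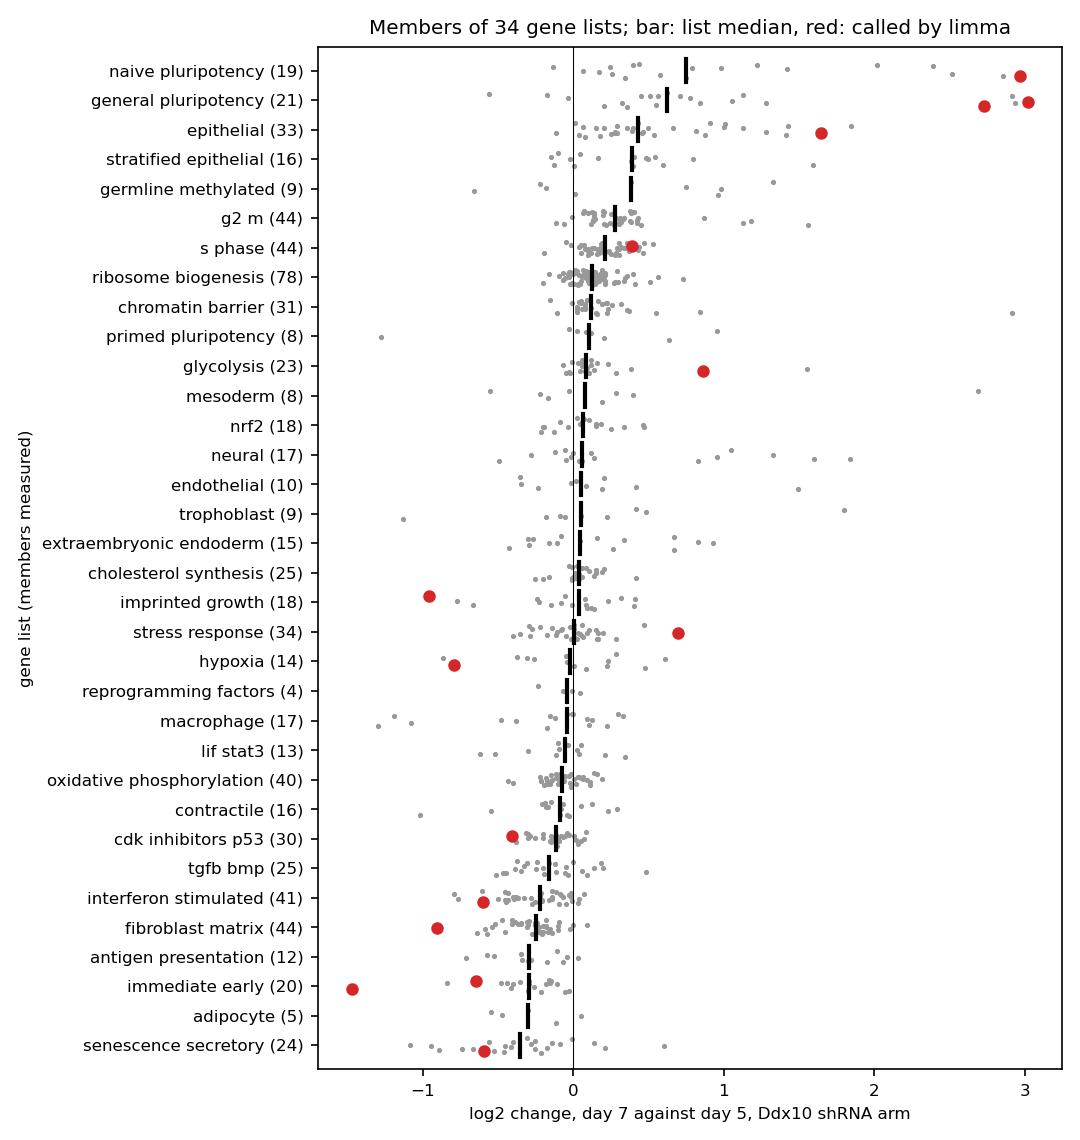
Log2 change from day 5 to day 7 in the Ddx10 shRNA arm for the members of 34 gene lists, ordered by list median (black bars); each dot is a gene and red dots are those called by limma. Naive pluripotency genes lie highest, with a median of 0.75, and senescence and secretory genes lowest, with a median of -0.35, while most lists hold 0 or 1 called member.

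Markers of other cell types gave 0 calls. Macrophage markers summed to 1335 and 1336 on day 5 and to 1557 and 1478 on day 7. Laptm5 alone made up most of each sum (823 and 777, then 1021 and 952). Tyrobp, Fcer1g, C1qc and Spi1 lay between 0 and 4.05, and Cx3cr1 was listed at 0 in all 4 libraries. Other members were present: Cd68 stood at 209 and 254 and then 228 and 230, and Itgam at 172 and 146 and then 176 and 162. Ptprc stood at 41.7 and 31.1 and then 34.3 and 35.6, and Csf1r at 7.85 and 12.1 and then 7.73 and 9.75. Of the 17 macrophage markers measured 10 were negative, with a list median of -0.04. Endothelial markers summed to 3650 and 3765 and then 3854 and 3973, of which Tek alone held 2689 and 2675 and then 2821 and 2886. Of 10 measured, 6 were positive and 4 negative. Pecam1, also known in pluripotent cells, moved most, from 18.6 and 31.6 to 73.7 and 66.6 (log2 1.49, limma adjusted p = 0.479). Neural, mesodermal, trophoblast and extraembryonic endoderm markers had medians of 0.06, 0.08, 0.05 and 0.05. Adipocyte markers had a median of -0.30 over 5 measured, with the lipase gene Lpl at 785 and 844 and then 819 and 871, and the endothelial median was 0.055. Stratified epithelial genes had a median of 0.39 over 16 measured, 5 (31.2%) being higher at an unadjusted p under 0.05, and germline genes one of 0.39 over 9, with 2 (22.2%) higher at that level. Some low members of these lists were higher on day 7 at an unadjusted p under 0.05. T, of the primitive streak, went from 0.66 and 3.03 to 18.3 and 13.5 (limma adjusted p = 0.196). Elf5, of the trophoblast, went from 6.08 and 5.15 to 23.1 and 20.9 (limma adjusted p = 0.231). Both lay under 7.606 on day 5, a level that every gene of the table reached in its highest library. They may be in the table through their day 7 values, and a fall could hardly be seen.

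The same interval in the control arm was used to ask whether the step differed with the Ddx10 shRNA. Limma called 143 genes in the control arm (0.908%), 53 higher (0.336%) and 90 lower (0.571%), a count that lay between 4 (without control day 7 replicate 1) and 103 (without control day 5 replicate 1) when 1 control library was left out, with 6 without control day 5 replicate 2 and 34 without control day 7 replicate 2. At an unadjusted p under 0.05, 1109 were higher there (7.04%) and 1419 lower (9.01%). No gene passed the test of the difference between the arms by limma, with 530 genes (3.36%) at an unadjusted p under 0.05, 255 positive (1.62%) and 275 negative (1.75%). Of the 36 genes called in the Ddx10 shRNA arm, 31 had a change of the same sign in the control arm, against 67.7% of all genes, and 16 were called there too. Their sizes were larger in the Ddx10 shRNA arm in 30 of the 36, but they had been chosen for their change in that arm. The adjusted p of the difference was 0.107 or more for each gene in the table. The median standard error of a difference was 0.22 on the log2 scale.

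**Figure D4:**
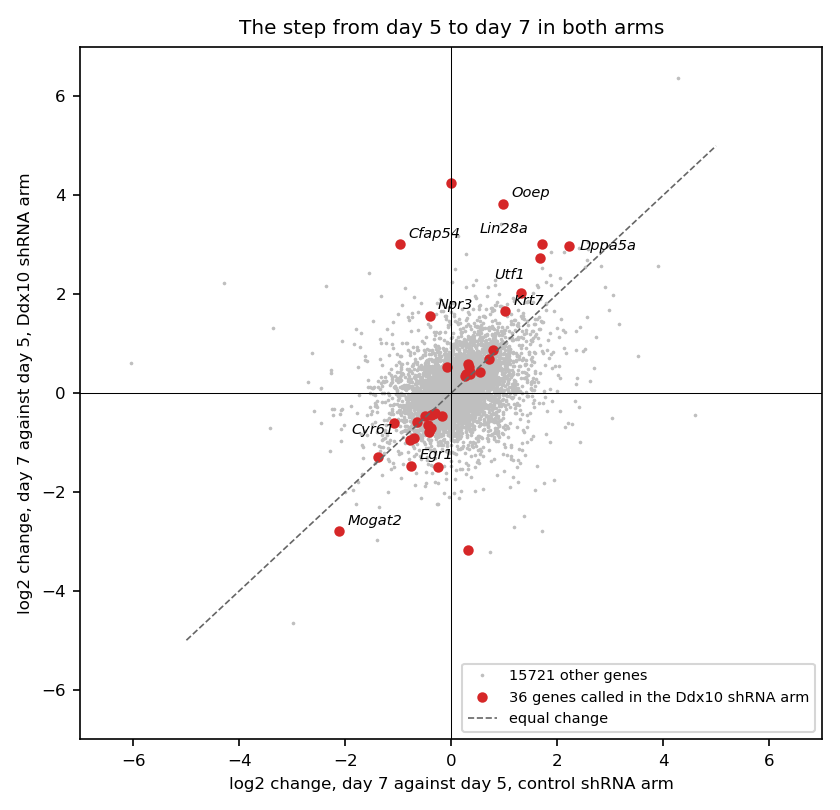
Log2 change from day 5 to day 7 in the Ddx10 shRNA arm (vertical) against the same in the control shRNA arm (horizontal); grey points are 15721 genes not called, red points the 36 called in the Ddx10 shRNA arm, and the dashed line marks equal change. Of the 36 red points 31 have the same sign in both arms. Npr3 and Cfap54 are among those that do not.

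Ifit2 fell in both arms, from 1385 and 1434 to 784 and 570 in the control (log2 -1.07), and its difference of 0.47 between the arms did not pass by limma. Egr1 came down from a higher day 5 level than in the control, where it went from 894 and 1038 to 528 and 618 (-0.75; difference -0.72, SE 0.214, not called by limma). On day 7 the Egr1 values of the arms overlapped. Pluripotency medians in the control were 0.50 for the naive and 0.57 for the general list, and the difference passed in no member.

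Some genes moved in opposite directions in the 2 arms, none with an adjusted difference under 0.05. Npr3, the clearance receptor for natriuretic peptides, had 14.6 and 16.8 normalized read counts on day 5 and 55.2 and 42.4 on day 7 with the Ddx10 shRNA (log2 1.57, limma adjusted p = 0.0146, and 0.0306 to 0.209 without 1 library), but 31.0 and 27.5 and then 26.0 and 18.2 in the control. Its difference was 1.97 (SE 0.339, limma adjusted p = 0.239). Cfap54, a gene of motile cilia, went from 4.51 and 8.76 to 59.6 and 56.6 (3.01, limma adjusted p = 0.0457, and 0.0934 to 0.313 without 1 library), and from 16.1 and 8.00 to 5.94 and 4.77 in the control (limma adjusted p of the difference 0.548). Foxs1, a forkhead factor gene, had the smallest p of the difference over all genes, with 6.87 and 4.004 and then 11.6 and 8.67, while the control went from 6.92 and 3.83 to 0 in both libraries. These 3 were named after their values were seen.

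Among genes with a mean of at least 50, the smallest p-values of the difference belonged to Nell2, Cacna1c, Gng2, Dyrk3, Phf14 and Mars. Nell2, a secreted neural glycoprotein gene, stood at 115 and 101 and then 63.4 and 58.4 with the Ddx10 shRNA, and at 25.7 and 44.0 and then 60.4 and 58.1 in the control, so the arms met on day 7 (limma adjusted p of the difference 0.548). Cacna1c, a calcium channel subunit gene, had 236 and 266 and then 162 and 160 against 110 and 104 and then 128 and 143. Its arms drew nearer on day 7 but did not overlap. Mars, a methionyl-tRNA synthetase gene, went from 1280 and 1533 to 1742 and 1745 and in the control from 1495 and 1728 to 1250 and 1322 (limma adjusted p of the difference 0.655).

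The hypoxia list split in the Ddx10 shRNA arm. Car12 was called lower, 5 of 14 (35.7%) were lower and 3 (21.4%) higher at an unadjusted p under 0.05, and the median was -0.02 with 7 positive. In the control 11 of 14 were positive with a median of 0.08. P4ha2, a collagen prolyl hydroxylase gene, went from 786 and 420 to 314 and 317, with wide day 5 replicates (log2 -0.86, limma adjusted p = 0.0716), and Egln3, an oxygen sensor gene, stood at 184 and 148 and then 174 and 146. Without day 7 replicate 2 the list median was 0.04. The difference between the arms was negative in 13 of 14 members, with a list median of -0.34 against 0.0152 over all genes. For 4 members it was negative at an unadjusted limma p under 0.05, against 1.75% of all genes. No member passed after adjustment.

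Both remaining calls were rows of low values. The row with the symbol Sgsm3 and the identifier ENSMUSG00000103565, which GENCODE vM21 does not place, was listed at 0 in both day 5 libraries and at 9.69 and 32.6 on day 7 (limma adjusted p = 0.0488, and 0.152 to 0.262 without 1 library). The row named PCDHA9 (ENSMUSG00000102697), a member of the alpha protocadherin cluster whose genes share exons, so that reads may be split among them, had 7.86 and 8.07 on day 5 and was listed at 0 in both day 7 libraries (limma adjusted p = 0.0361, and 0.104 to 0.238 without 1 library). No fold is given for either.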

How the data were processed

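RNA was sequenced from all 20 libraries as paired ends of 150 bases from TRIzol-extracted RNA, per the labels' protocols. The authors' deposited table holds a signal for each of 15757 genes. Every gene reached at least 7.606 in its highest library. A gene low on 1 day may thus be in the table through its values on another. Its header names no unit; values that are not whole, with nearly equal upper quartiles across libraries, were taken to be normalized read counts. Per the submitters' processing notes, the build was mm10 and the tools were RSEM 1.2.22, STAR 2.5.2a, DESeq2 1.22.0 and Trim Galore 0.4.4, without roles; the normalization, annotation and gene filter are not given in the sources used here. Only 41.1 to 63.4% of low values were within 0.1 of whole steps, so reads could not be recovered and depth is approximate.

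Values were transformed to log2(value + 1), which understates changes of low genes, with a filter of at least 1 in at least 2 libraries that removed no gene. One limma 3.58.1 fit (R 4.3.3) held 10 group means (trend and robust empirical Bayes, 10 residual degrees of freedom, median SE of the step 0.156), with Benjamini-Hochberg adjustment over 15757 genes and a threshold of 0.05. Replicates are biological per the series text, with no word on separate cultures, so the spread behind the p-values is that between these samples and may be technical. Labels hold no batch or date.

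The members and gene lists were chosen with earlier results of these data known. Of 840 members of 34 lists, 785 were measured. Genes named are Ddx10, the reprogramming factors, the 12 called genes that rose and the 12 that fell most (mean of 50 or more, separate replicates, no clone name), and the 6 smallest p of the difference between arms. For each list the rule also gave the 4 smallest p; not all of these are described here, and other members are given as examples chosen after their values were seen. Coordinates are from GENCODE vM21, which holds 15665 of the identifiers. Alternatives were other scalings, pseudocounts, filters and fits, a replicate block and leaving out each library.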

Additional observations from a re-analysis of the deposited data

How the results depend on the processing

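The count of 36 called genes moved with most settings. It was 131 after quantile scaling, 16 and 101 with pseudocounts of 0.1 and 5, 388 with library weights, 181 in a fit on the 4 compared libraries alone, and 5 to 18 when 1 of them was left out. In the control arm 143 became 338 after quantile scaling, 225 with a pseudocount of 5, 66 without trend and robust settings, 1195 with library weights, 862 on its own libraries alone and 4 to 103 with 1 library left out. For the difference between the arms, 0 became 1 with a pseudocount of 0.1, 1 with library weights, 2 on the compared libraries alone and 0 to 4 with 1 library left out. Median ratio scaling, no filter and a filter of at least 20 left these counts within 1.5 times the main ones. The cause of these moves was not tested. Of the single-gene results under the alternatives, 2297 kept their side of the threshold, 190 lost it and 120 gained it. A change of sign occurred in 0 results called in the main fit or the alternative. Changes of sign in results called in neither are counted among the 2297.

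With the replicate block the counts were 14 in the Ddx10 shRNA arm, 92 in the control arm and 0 for the difference; the same-numbered libraries of days 5 and 7 deviated together at only r = 0.0893 over 12071 genes, so the numbers do not show a pairing. With 2 libraries a group and a median SE of 0.156, small changes of single genes could not be detected.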
